A study of Mus musculus with 2 samples.

Results

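Nuclear receptors are transcription factors that most often carry a zinc finger DNA-binding domain and a domain for a small fat-soluble ligand. The 40 genes described here encode members of this family other than Pparg, the master regulator of fat cell formation, and were chosen by symbol from the family. All 40 were found among the 20884 named genes of the array, through the RefSeq transcript that each probe carries. They were read from 60 probes, of which 58 had a single spot on each array. RNA came from cells of the epididymal fat of male C57/BL mice, digested with collagenase and spun. Small proliferative adipocytes are the cells that sediment from the floating fraction in a further spin, and stromal vascular cells are those left below after the initial spin. The 2 populations were cultured to 90% confluency and then treated for 3 days with insulin, dexamethasone and IBMX, followed by 2 days in plain medium. Differentiated small proliferative adipocytes are called SPAD here, and differentiated stromal vascular cells, spelled "viscular" in the labels, SVCD. Each had 1 Agilent single-colour array. There is thus no replicate of either group, no difference below was tested, and the number of arrays limits the precision. The labels do not say how many animals or cultures gave each RNA.

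In fat cells several of these receptors take part in differentiation and metabolism. PPARs, LXRs, RARs, the thyroid hormone receptors and the vitamin D receptor bind DNA together with a retinoid X receptor (RXR). They sense fatty acids, oxysterols, retinoic acid, thyroid hormone and vitamin D. The glucocorticoid receptor is the target of the dexamethasone in the differentiation medium, which both populations received. COUP transcription factors, ROR receptors and estrogen-related receptors bind related DNA elements without a classical hormone.

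Signals are processed intensities in arbitrary units, and differences are given on the log2 scale as SPAD minus SVCD, after each array was scaled to its own 75th percentile. A gene stands for its brightest probe. Further probes are given where they differ for the receptor genes, but for few genes of the related lists. The error after ± is the SD between repeat spots at the signal of each array. It covers spot-to-spot error only. It was 0.33 (SPAD) and 0.36 (SVCD) on the log2 scale per spot for the dimmest repeated probes, and between 0.05 and 0.10 for brighter ones. Signals of different genes come from different probes and are not set against each other.

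Of the 40 receptor genes, 31 were well above background on both arrays, 2 (Nr5a2 and Hnf4a) in SPAD alone, none in SVCD alone, and 7 in neither. These are 77.5%, 5.0%, 0% and 17.5% of the receptors, against 67.4%, 3.27%, 4.16% and 25.2% of all 20884 named genes. Ppard, Nr1i3, Nr2f1, Rora, Rorb, Pgr and Rxra were past 2-fold (a log2 difference of 1 or more) higher in SPAD, and Rara, Nr1h3 and Nr1h4 past 2-fold lower. The other 21 lay within 2-fold. Thus 7 of 31 were higher, where 14.4% of all 14074 named genes on both arrays were, and 3 of 31 were lower, where 13.3% of all genes were. In either direction the share was 32.3% for the receptors and 27.7% for all genes, so the family as a whole stood near the background. The median log2 difference of the 31 receptors was 0.10, against 0.07 over all genes. Scaling to the arrays' medians gave 7 receptors higher and 5 lower, where 13.0% of all genes were higher and 14.5% lower. Scaling to the spike-in controls moved every gene by -0.84 on the log2 scale and gave 5 receptors higher and 14 lower, where 5.19% of all genes were higher and 38.1% lower. Each of the 10 receptor genes past 2-fold kept its direction with normexp background correction, with quantile normalization and with the mean over a gene's probes. These settings reprocess the same 2 arrays, so a kept direction is no replication. Ppard, Nr1h4, Nr1i3 and Rora had only 1 probe on both arrays, so for them the mean could not differ.

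**Figure D1:**
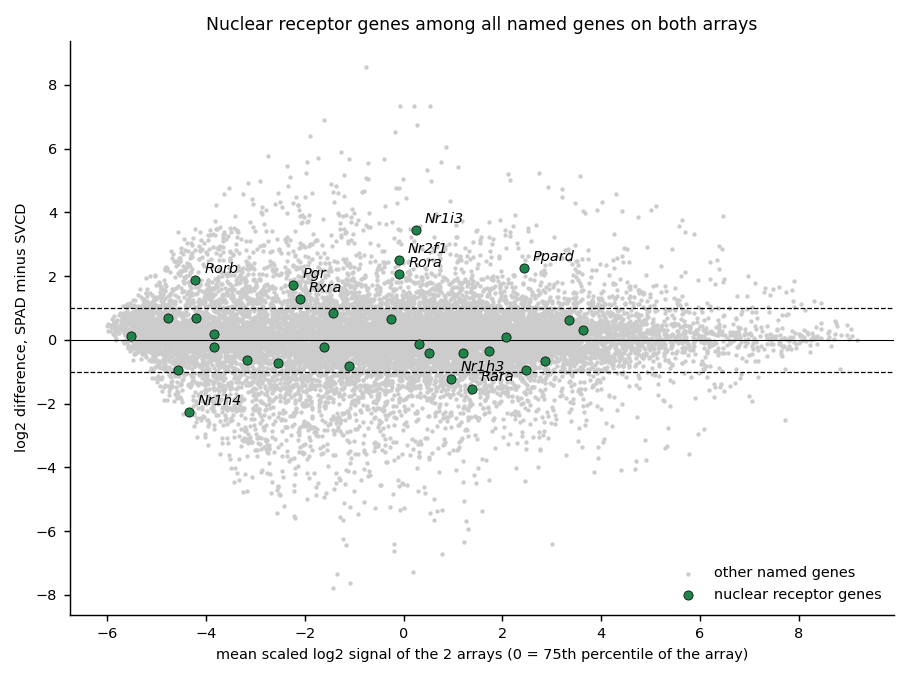
Log2 difference between SPAD and SVCD against the mean scaled log2 signal of the 2 arrays, for every named gene well above background on both (grey) and the 31 nuclear receptor genes among them (green); dashed lines mark 2-fold. The 10 labelled receptor genes lie past 2-fold, from -2.27 (Nr1h4) to 3.43 (Nr1i3), inside the cloud of all genes.

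Markers of several cell types differed between the arrays too, and their part in the receptor differences was not tested. Of 10 mature adipocyte markers, 9 were on both arrays and all 9 at least 2-fold higher in SPAD, and Lep was undetected. The summed signals of this list were 143400.4 in SPAD and 39539 in SVCD, of which Fabp4 alone gave 108495 and 31257. Only 5 of the 9 had a signal of at least 50 on both arrays. Endothelial markers were at least 2-fold higher for 9 of 10 (sums of 21238 and 5479). Of 9 macrophage markers found, 5 of the 8 present on both arrays were past 2-fold lower and none higher (sums of 121432 and 183022). Mesothelial markers (3 of the 5 on both arrays lower, sums of 1262 and 11776), smooth muscle markers (5 of 6 lower, sums of 15460 and 214486) and cell division genes (8 of 8 lower, sums of 1003 and 23229) were lower. Of 8 stromal fibroblast markers 2 were higher and none lower (sums of 20677 and 16380). Fewer cells of a type and less RNA per cell cannot be told apart in such samples.

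**Figure D2:**
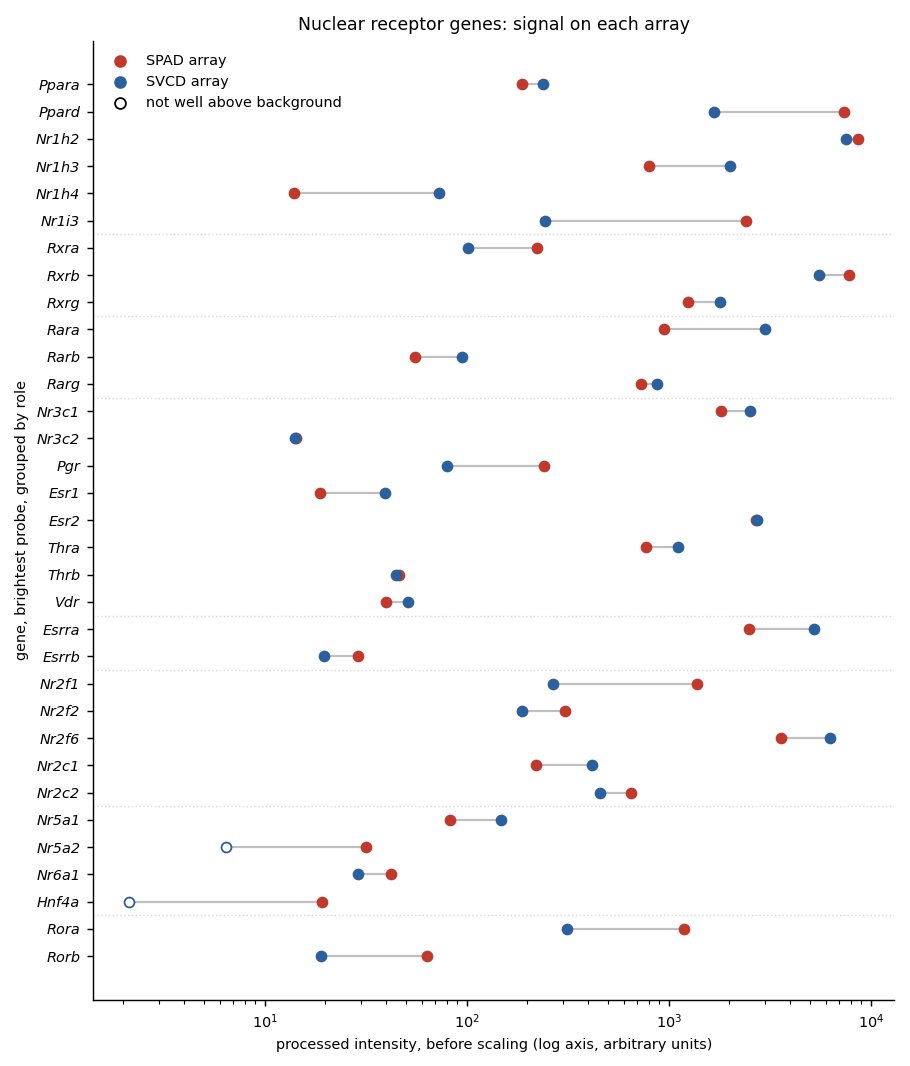
Processed intensity (log axis) of the brightest probe of each receptor gene well above background on at least 1 array, on the SPAD array (red) and the SVCD array (blue), with open circles for signals not well above background and dotted lines between roles. Nr1i3 has the widest gap among genes on both arrays (2413 and 244), and the SVCD signals of Nr5a2 and Hnf4a are open circles.

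Among the sensors of lipids, bile acids and foreign compounds, 4 of the 6 present on both arrays were past 2-fold, Ppard and Nr1i3 higher and Nr1h3 and Nr1h4 lower. Over all named genes on both arrays, 27.7% were past 2-fold in either direction. Ppard encodes PPAR delta, a fatty acid receptor present in many tissues that promotes fatty acid oxidation. Its single probe read 7365 in SPAD and 1678 in SVCD, which is 4.79-fold higher in SPAD (log2 difference 2.26 ± 0.08). The signal was bright on both arrays, far from the background. Ppara encodes the PPAR of liver and brown fat, the target of fibrates. Its brightest probe gave 189 in SPAD and 240 in SVCD (log2 difference -0.22 ± 0.11). A further Ppara probe read 39.1 in SPAD and was not well above background in SVCD (7.70), at least 4.97-fold higher, and a further one was not well above background in SPAD or SVCD. The probes of Ppara thus do not give 1 direction.

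The liver X receptors, which sense oxysterols and induce cholesterol efflux genes, differed from each other. Nr1h3, the LXR alpha gene of liver, fat and macrophages, read 796 in SPAD and 2014 in SVCD, 2.32-fold lower in SPAD (log2 difference -1.21 ± 0.08). Its other probe read 477 and 1243, a log2 difference of -1.25 ± 0.09, so both probes gave nearly the same value. Nr1h2, the more widely expressed LXR beta gene, read 8654 and 7571 (log2 difference 0.32 ± 0.08), which turned negative with spike-in scaling. Nr1h4 encodes the bile acid receptor FXR. It read 13.9 in SPAD and 73.2 in SVCD, 4.81-fold lower in SPAD (log2 difference -2.27 ± 0.34). The SPAD signal was close to 10.8, the dimmest signal still called well above background in SPAD, and normexp background correction gave -0.84. Macrophage markers, lower in SPAD as given above, moved the same way as Nr1h3, as did mesothelial, smooth muscle and cell division lists. Mature adipocyte markers moved the other way. The part of any cell type in the Nr1h3 difference was not tested.

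Nr1i3 and Nr1i2 encode CAR and PXR, the receptors that induce drug-metabolising enzymes in liver. Nr1i3 had the largest difference of the 31 genes. The signal was 2413 in SPAD and 244 in SVCD, 10.8-fold higher in SPAD (log2 difference 3.43 ± 0.08). A second Nr1i3 probe was not well above background in SPAD or SVCD (2.97 and 2.34), so the difference rests on a single spot per array. Nr1i2 was not well above background in SPAD or SVCD.

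The retinoid X receptors, partners of many of the others, were all on both arrays. Rxra read 224 in SPAD and 101 in SVCD, 2.41-fold higher in SPAD (log2 difference 1.27 ± 0.12). Its other probe read 93.3 and 114, a log2 difference of -0.16 ± 0.13. The probes of Rxra disagreed, and the mean over them stayed within 2-fold (0.55). Rxrb read 7792 and 5560 (0.61 ± 0.08, negative with spike-in scaling). Rxrg, in other tissues an RXR of muscle and brain, read 1243 and 1793 on its brightest probe (-0.40 ± 0.08), while a dim probe had a log2 difference of 0.63 ± 0.48. No RXR gene was thus past 2-fold on more than 1 probe.

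All 3 retinoic acid receptor genes had negative log2 differences, and Rara alone of them was past 2-fold. The product of Rara, RAR alpha, is the most widely expressed receptor of retinoic acid. It read 952 in SPAD and 2996 in SVCD, 2.88-fold lower in SPAD (log2 difference -1.53 ± 0.08). The other Rara probe read 204 and 786, 3.53-fold lower (-1.82 ± 0.10), so both probes passed 2-fold in the same direction. Rarb, itself a target gene of retinoic acid, read 55.5 and 94.6 (-0.64 ± 0.34). Its further probe was dim (9.21 and 11.8) and well above background in SVCD alone. Rarg read 728 and 878 (-0.14 ± 0.08).

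Of 8 receptors for steroids, thyroid hormone and vitamin D, all were on both arrays, 7 lay within 2-fold and Pgr was higher in SPAD. The glucocorticoid receptor gene Nr3c1, whose product is activated by dexamethasone, read 1823 in SPAD and 2539 in SVCD (log2 difference -0.35 ± 0.08), and its other probe gave -0.27 ± 0.09. Nr3c2, the mineralocorticoid receptor gene, was dim on both arrays (14.3 and 14.2), with a log2 difference of 0.13 ± 0.48. Pgr, the progesterone receptor gene and a classical target of estrogen receptors, read 240 and 79.5, 3.30-fold higher in SPAD (log2 difference 1.72 ± 0.12). Its other probe read 122 and 20.3, 6.54-fold higher (2.71 ± 0.37). Both Pgr probes were past 2-fold in the same direction, with sizes that differed by about 1 log2 unit, and the brighter gave 0.88 with spike-in scaling.

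Neither estrogen receptor gene was past 2-fold. Esr1, which encodes estrogen receptor alpha, had a dim probe printed 10 times on the array, with a mean signal of 18.8 in SPAD and 39.7 in SVCD. The log2 difference of -0.95 ± 0.16 lay just inside 2-fold, and it was past 2-fold with median scaling (-1.03), quantile normalization (-1.12) and spike-in scaling (-1.79). With normexp background correction it was -0.23. A further Esr1 probe gave -0.85 ± 0.48, and another was not well above background in SPAD or SVCD. Esr2, which encodes estrogen receptor beta, read 2700 and 2741 (0.10 ± 0.08). The thyroid hormone receptor gene Thra read 770 and 1107 (-0.40 ± 0.08), with 0.08 ± 0.48 on a dim probe. Thrb read 46.2 and 44.5 (0.18 ± 0.48), with -0.18 ± 0.48 on a dimmer probe. The vitamin D receptor gene Vdr, whose product restrains fat cell formation in culture, read 40.1 and 51.1 (-0.22 ± 0.34). The differences of Nr3c2, Thrb and Vdr were smaller than their spot error.

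The estrogen-related receptors drive genes of mitochondrial respiration with the coactivators PGC-1 alpha and beta. Esrra read 2508 in SPAD and 5253 in SVCD (log2 difference -0.94 ± 0.08), just inside 2-fold. It was past 2-fold with median scaling (-1.01) and with spike-in scaling (-1.78). Esrrb was dim (29.1 and 19.6, a log2 difference of 0.70 ± 0.48), and both Esrrg probes were not well above background in SPAD or SVCD.

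The COUP transcription factor genes Nr2f1 and Nr2f2, which shape mesenchymal, vascular and neural fates, both had higher signals in SPAD, Nr2f1 past 2-fold. Nr2f1 read 1380 in SPAD and 266 in SVCD, 5.65-fold higher in SPAD (log2 difference 2.50 ± 0.08). The other Nr2f1 probe read 353 and 71.7, 5.37-fold higher (2.42 ± 0.12), so the probes differed by less than their spot error. Nr2f2, a gene of venous endothelium and of mesenchymal cells, read 307 and 187 (log2 difference 0.84 ± 0.12), close to 0 with spike-in scaling. Nr2f6, an orphan receptor of the same subfamily, had a negative difference (3600 and 6266, -0.67 ± 0.08). Endothelial and mature adipocyte markers, both higher in SPAD as given above, moved the same way as Nr2f1, and their part was not tested.

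Of the testicular receptor genes, Nr2c1 read 220 and 418 (-0.80 ± 0.09), with -0.17 ± 0.11 on another probe, and Nr2c2 read 653 and 457 (0.64 ± 0.09), with 0.62 ± 0.09 on another. Nr2e1 and Nr2e3, receptors of the brain and of photoreceptors, were not well above background in SPAD or SVCD.

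Both ROR genes on the list were past 2-fold. Rora encodes a receptor that activates clock and lipid genes. Its single probe read 1192 in SPAD and 312 in SVCD, 4.16-fold higher in SPAD (log2 difference 2.06 ± 0.09). Rorb, best known from retina and brain, was dim, with 63.7 in SPAD and 19.1 in SVCD on its brighter probe (log2 difference 1.87 ± 0.37). The other Rorb probe gave 0.59 ± 0.48, and normexp background correction lowered the first to 0.67.

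The remaining receptors are those of liver, gonad and early embryo. Nr5a1, the steroidogenic factor of adrenal and gonad, read 83.0 and 148 (log2 difference -0.71 ± 0.13), and Nr6a1, the germ cell nuclear factor, read 42.4 and 29.0 (0.67 ± 0.48). Nr5a2, which encodes LRH-1, a relative of Nr5a1 in liver and pancreas, read 31.9 in SPAD and was not well above background in SVCD (6.44), at least 4.04-fold higher in SPAD, and its second probe was not well above background in SPAD or SVCD. Hnf4a, a liver and gut regulator, read 19.2 in SPAD and was not well above background in SVCD (2.14), at least 2.43-fold higher. The SPAD signals of Nr5a2 and Hnf4a both lay in the dimmest range, where a single spot has an SD of 0.33. Hnf4g was not well above background in SPAD or SVCD, nor were Nr0b1 and Nr0b2, which encode DAX-1 and SHP, repressors that lack the usual DNA-binding domain.

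**Figure D3:**
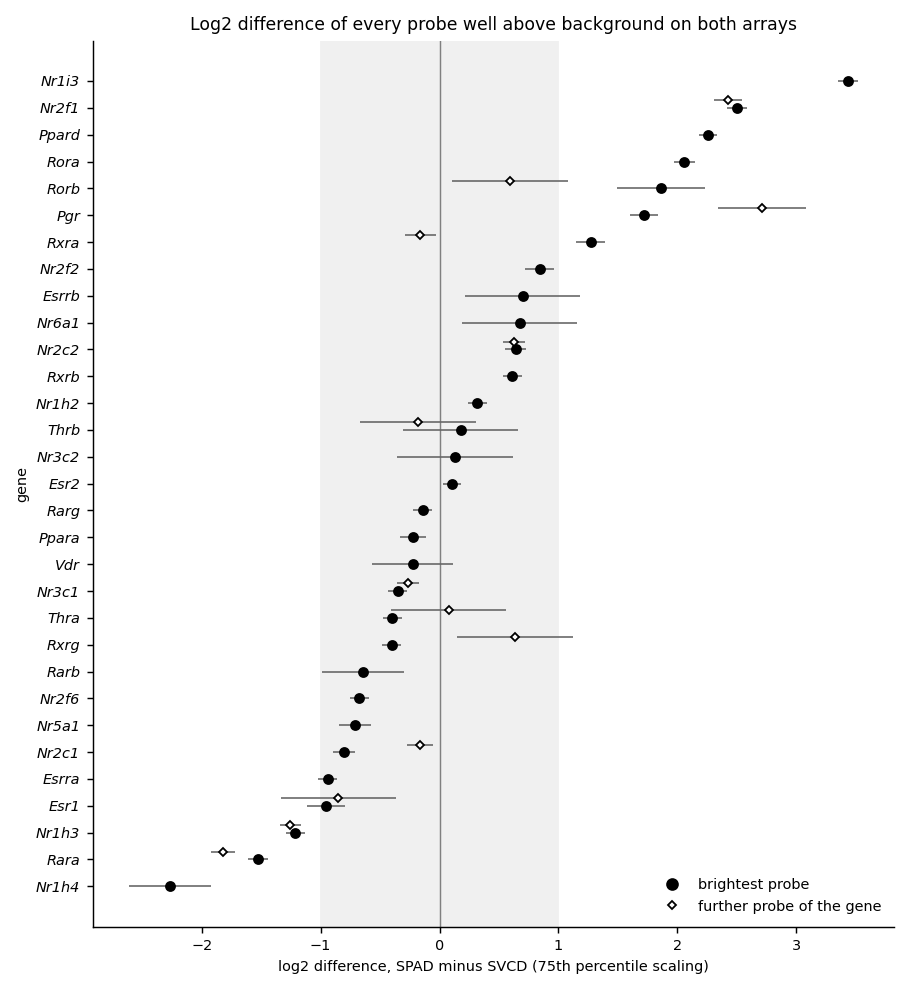
Log2 difference between SPAD and SVCD of every receptor probe well above background on both arrays. Bars show the combined spot-to-spot error given after ± in the text. Filled circles are the brightest probe of a gene, open diamonds its further probe, and the grey band marks less than 2-fold. Nr2f1, Nr1h3 and Rara have all probes past 2-fold on 1 side, whereas the Rxra probes lie at 1.27 and -0.16.

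Of 13 receptor genes with several probes on both arrays, the probes of 9 had the same direction, 69.2% against 74.4% of 3557 such genes overall. The 4 with opposite signs were Rxra, Rxrg, Thra and Thrb. Nr1h3, Nr2f1, Pgr and Rara were past 2-fold on every probe that was on both arrays and had more than 1 such probe. Some receptor genes overlap others in the RefSeq gene table. Acp2, a lysosomal phosphatase gene overlapping Nr1h3, had a log2 difference of -1.26, close to that of Nr1h3. Tomm40l, which overlaps Nr1i3, had -1.11, opposite in sign to Nr1i3. Nr1d1, which overlaps Thra, had 1.57, opposite in sign to Thra. Whether any probe also binds a neighbour's transcript was not tested.

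The promoters of the 3 receptor genes highest in SPAD and of the 3 past 2-fold lower are shown so that their sequence can be read beside these differences. Each is the 250 bases before the most upstream start in the RefSeq table (build GRCm38.p6), written 5′ to 3′ in the direction of the gene. Capitals mark AGGTCA, the half-site bound by many nuclear receptors but not by the glucocorticoid, mineralocorticoid and progesterone receptors, CCGCCC, the GC box of Sp1-like factors, and CACGTG, the E-box bound by clock and basic helix-loop-helix factors, each searched on both strands.
Nr1i3, chr1:171213720-171213969, plus strand: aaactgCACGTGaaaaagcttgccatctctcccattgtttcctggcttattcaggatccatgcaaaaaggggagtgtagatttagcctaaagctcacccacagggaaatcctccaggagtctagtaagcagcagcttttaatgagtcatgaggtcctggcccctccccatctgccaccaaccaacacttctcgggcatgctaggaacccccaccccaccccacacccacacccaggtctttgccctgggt
Nr2f1, chr13:78198874-78199123, minus strand: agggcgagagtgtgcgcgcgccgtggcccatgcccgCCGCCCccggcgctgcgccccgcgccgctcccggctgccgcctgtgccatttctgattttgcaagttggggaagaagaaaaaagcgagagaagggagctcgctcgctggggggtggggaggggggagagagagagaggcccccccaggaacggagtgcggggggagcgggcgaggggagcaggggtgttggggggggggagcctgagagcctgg
Ppard, chr17:28232504-28232753, plus strand: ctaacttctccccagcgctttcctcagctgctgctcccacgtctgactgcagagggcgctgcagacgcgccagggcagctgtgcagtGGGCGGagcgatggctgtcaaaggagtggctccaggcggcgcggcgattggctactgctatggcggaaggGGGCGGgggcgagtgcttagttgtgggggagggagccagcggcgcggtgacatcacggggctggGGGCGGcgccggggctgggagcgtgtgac
Nr1h3, chr2:91195117-91195366, minus strand: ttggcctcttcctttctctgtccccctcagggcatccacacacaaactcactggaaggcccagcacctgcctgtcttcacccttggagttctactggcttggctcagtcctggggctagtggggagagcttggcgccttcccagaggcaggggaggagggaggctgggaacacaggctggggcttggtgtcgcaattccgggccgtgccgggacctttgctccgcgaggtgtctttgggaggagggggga
Rara, chr11:98937446-98937695, plus strand: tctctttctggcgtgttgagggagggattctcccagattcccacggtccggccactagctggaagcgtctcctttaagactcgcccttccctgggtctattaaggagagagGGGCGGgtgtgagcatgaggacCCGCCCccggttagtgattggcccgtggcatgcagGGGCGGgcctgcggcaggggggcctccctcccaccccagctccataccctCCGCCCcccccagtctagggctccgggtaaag
Nr1h4, chr10:89506659-89506908, minus strand: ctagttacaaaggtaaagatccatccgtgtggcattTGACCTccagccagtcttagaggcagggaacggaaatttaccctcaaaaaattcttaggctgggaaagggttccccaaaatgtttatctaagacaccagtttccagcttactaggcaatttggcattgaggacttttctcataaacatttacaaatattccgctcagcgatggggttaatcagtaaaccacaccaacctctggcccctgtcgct

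Of the 40 receptor genes 36 had an entry in this table. AGGTCA stood in 5 of these 36 promoters (13.9%) and in 13.8% of all 27025 promoters of the same length. Among the 6 shown, Nr1h4 alone holds it, as TGACCT on the strand written here. CCGCCC stood in 17 of 36 (47.2%) and in 33.0% of all promoters. It occurs 3 times in the Ppard, 4 times in the Rara and 1 time in the Nr2f1 promoter, so it is found beside higher and lower genes. CACGTG stood in 3 of 36 (8.33%) and in 6.04% of all, and among those shown in Nr1i3. The Nr1h3 window holds none of the 3. No 2 of these motifs overlap in the windows shown. Such matches describe the letters only, and the arrays did not measure binding.

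Genes that work with these receptors were read from lists of cofactors, ligand enzymes, carriers and target genes. Beside the list counts that follow, 14.4% of all named genes on both arrays were past 2-fold higher and 13.3% lower. Of the family members outside the 40, Pparg read 1587 in SPAD and 440 in SVCD, 3.93-fold higher (log2 difference 1.98 ± 0.03). Nr1d1 and Nr1d2, the REV-ERB repressors that bind the same element as ROR receptors, were 2.96-fold and 3.69-fold higher in SPAD. Nr4a2, an orphan receptor gene induced early by many stimuli, differed by -0.34 ± 0.09, and Nr4a3 was not well above background in SPAD or SVCD. Of the 5 further family members on both arrays, 3 were past 2-fold higher and none lower.

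Of 22 coactivator and corepressor genes on both arrays, 1 was past 2-fold higher and 2 past 2-fold lower, and the median was 0.01. With the mean over a gene's probes, 2 were higher and 3 lower, and the median was -0.18. Under that setting 14.1% of all genes were higher and 13.3% lower. The log2 difference of Ncoa7 was 0.15 on its brightest probe and 4.82 on another, and that of Tbl1xr1 -0.80 and -1.99. Nrip1, the corepressor RIP140 that restrains oxidative genes in fat, was 3.44-fold higher in SPAD. Ppargc1a, the gene of PGC-1 alpha, read 50.2 in SPAD and was not well above background in SVCD, at least 6.37-fold higher. Ppargc1b, the gene of PGC-1 beta, was on the SVCD array alone at 28.4, at least 2.41-fold lower in SPAD. Pprc1, another relative, read 60.1 and 138, 2.10-fold lower. The 3 genes of this coactivator family thus did not share a direction.

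Of 15 PPAR target genes on both arrays 2 were past 2-fold higher and 2 past 2-fold lower, where 14.4% and 13.3% of all genes were. Their median log2 difference was -0.08. The fatty acid carrier gene Fabp4 was 3.79-fold and Cpt1b, which brings fatty acids into mitochondria, 3.07-fold higher in SPAD. The lipase gene Lpl and the mitochondrial carrier gene Ucp3 were 6.80-fold and 3.37-fold lower. The list thus stood near the shares over all genes, while Ppard and Pparg were both higher.

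Among 10 LXR and FXR target genes on both arrays, 4 were past 2-fold lower in SPAD and 1 higher, and the median was -0.16. Abca1 and Abcg1, which export cholesterol, read 1181 and 3931 (3.05-fold lower in SPAD) and 551 and 3316 (5.51-fold lower). Apoe, the apolipoprotein that accepts cholesterol, was 5.64-fold lower. Abcg5 was on the SPAD array alone at a dim 31.1, at least 3.94-fold higher. Macrophages also express Abca1, Abcg1 and Apoe, and their markers were lower in SPAD as given above. Mesothelial, smooth muscle and cell division lists were lower too, and the part of any cell type was not tested.

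Retinoid genes had the lowest median of the 7 related lists, -1.37, and of 7 on both arrays 4 were past 2-fold lower in SPAD and none higher. Dhrs3, a retinaldehyde reductase gene that retinoic acid induces, read 2645 in SPAD and 37625 in SVCD, 13.0-fold lower. Aldh1a2, a retinoic acid synthesising enzyme gene, read 179 and 1313, 6.74-fold lower. Tgm2, a transglutaminase gene and RAR target, was 5.72-fold lower. Cyp26b1, whose enzyme breaks down retinoic acid, read 262 and 739, 2.58-fold lower. Rara, given above, was lower too, while Cyp26a1 and Stra6 were not well above background in SPAD or SVCD. Mesothelial, smooth muscle and macrophage markers and cell division genes, also lower in SPAD, moved the same way, and their part was not tested.

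Of 12 glucocorticoid genes on both arrays 2 were past 2-fold higher in SPAD and none lower, and the median was 0.12. Hsd11b1, the enzyme gene that regenerates active glucocorticoid in cells, read 1131 and 84.8, 14.5-fold higher in SPAD (log2 difference 3.86 ± 0.04). Cebpd, an early adipogenic factor gene induced by glucocorticoid, was 4.31-fold higher. The receptor target genes Fkbp5 and Tsc22d3 had log2 differences of -0.95 ± 0.08 and -0.86 ± 0.08, and the receptor gene Nr3c1 itself -0.35. Enzyme and target genes of thyroid hormone, vitamin D and estrogen on both arrays had 2 of 8 higher and 2 lower. Thrsp, a lipogenic gene induced by thyroid hormone, was at least 39.5-fold higher in SPAD, and Me1, the malic enzyme gene, 3.12-fold higher. Igfbp4 was 5.33-fold higher, and the estrogen receptor target gene Greb1 2.76-fold lower on its brightest probe.

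**Figure D4:**
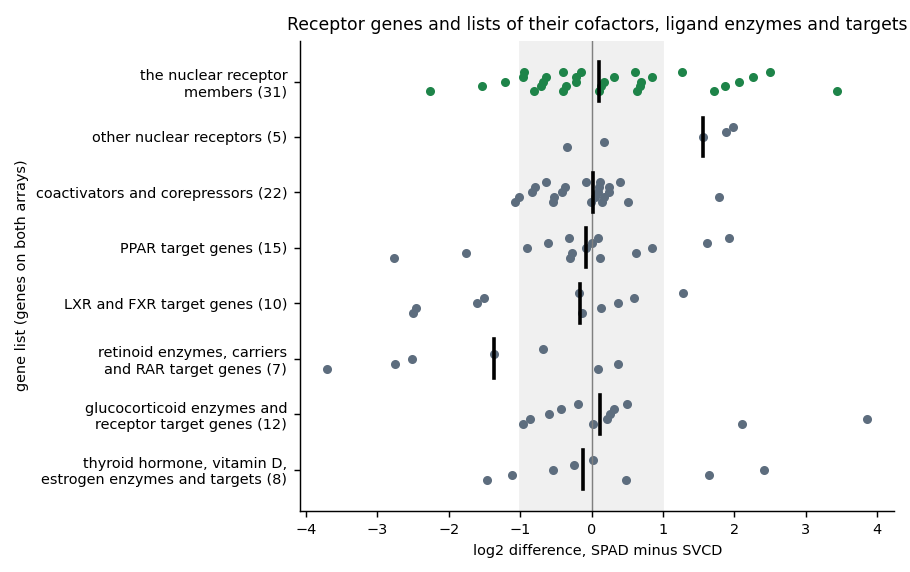
Log2 difference between SPAD and SVCD of the 31 receptor genes (green) and of the genes of 7 related lists (grey) that were well above background on both arrays, with black bars for medians and a grey band for less than 2-fold; numbers in brackets count genes. The medians run from -1.37 for the retinoid list to 1.57 for the other nuclear receptors, with the receptor genes at 0.10.

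**Figure D5:**
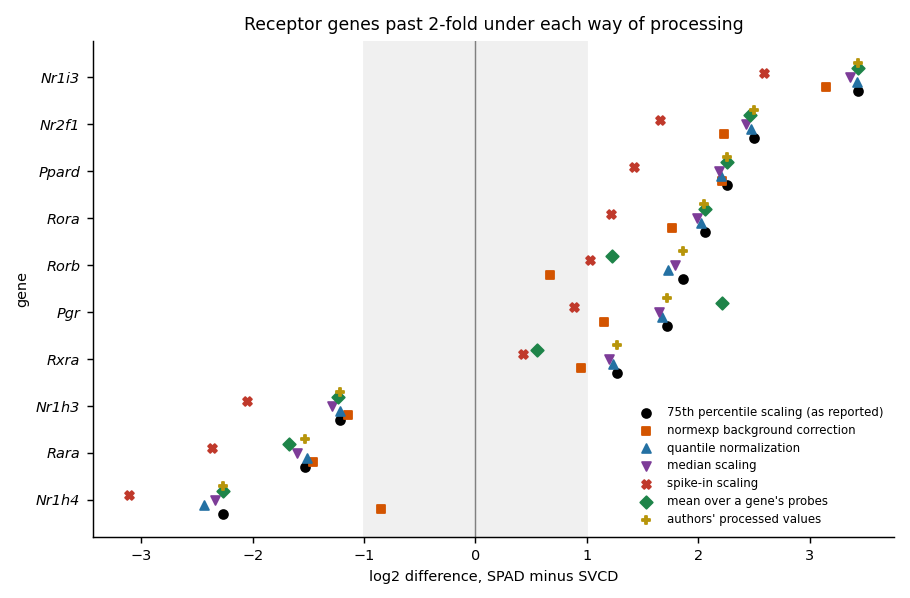
Log2 difference between SPAD and SVCD of the 10 receptor genes past 2-fold, as reported and under 6 other ways of processing; the grey band marks less than 2-fold. Nr1i3, Nr2f1, Ppard, Rora, Nr1h3 and Rara stay past 2-fold on the same side throughout, while Rxra, Rorb, Pgr and Nr1h4 enter the band under at least 1 of them. The authors' deposited values nearly equal those reported. For Nr1i3, Ppard, Rora and Nr1h4 the mean over probes is the reported value itself.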

How the data were processed

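Cy3-labelled RNA (30 ng each) was hybridised to 2 Agilent arrays. Per the submitters' processing notes, Agilent Feature Extraction 10.7.3.1 read the spots, and the scanner files deposited by the authors give a background-subtracted intensity per spot. The authors also deposited a table on the log2 scale, centred per probe, with no stated scaling between arrays. Its differences between the arrays nearly equal those after 75th percentile scaling. Here, control and outlier spots were left out, log2 intensities averaged per probe (39425 probes) and scaled to each array's 75th percentile (622 in SPAD, 678 in SVCD). Both arrays had 64.5% to 65.6% of probes well above background and no saturated non-control spot. RefSeq accessions (GRCm38.p6 table) named 27506 probes (69.8%). A gene took its brightest probe. A probe counts as detected where most of its spots were well above background. A gene detected on 1 array is given as a bound: its bright value over the dim one, or over the dim array's lowest detected signal (10.8 in SPAD, 8.60 in SVCD) where that is higher, written "at least N-fold". Genes past 2-fold were counted without a test. Errors came from probes printed 10 times, in 6 signal bins per array. Receptor genes and lists were chosen with earlier results of these data known. Every receptor gene is accounted for. Of each related list up to 4 detected genes with the largest absolute difference are named, plus Pparg. Genes listed as undetected are named besides, as are Ncoa7 and Tbl1xr1 for their differing probes. A few genes of the related lists are not reported here and were left out of their counts. The scanner files hold median spot signals, which normexp (limma 3.58.1, offset 50) used in place of means. The calculations were tested on simulated data.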

Additional observations from a re-analysis of the deposited data

How the results depend on the processing

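With 1 array per group no replicate could be left out. No paired analysis was possible because each group has a single array. Scaled to the spike-in controls, 14 receptor genes were at least 2-fold lower and the median of the 31 was -0.74, where 38.1% of all genes were lower and their median was -0.77. The related lists shifted down as well under this scaling. Glucocorticoid genes had 2 higher and 5 lower, PPAR target genes 1 and 7, and coactivators and corepressors 0 and 9. Median scaling gave 5 lower genes, Esr1 and Esrra joining. The receptor median was -0.13 with quantile normalization, against 0.007 over all named genes. With no filter on dim probes it was 0.34 for all 40 receptor genes, against 0.25 over all named genes. For the 23 receptor genes with a signal of at least 50 on both arrays, a filter chosen after seeing the data, it was -0.14. Over all genes passing that filter the median was 0.05. With 1.5-fold in place of 2-fold, 12 genes were higher and 9 lower, against 25.7% and 21.7% of all genes. Normexp background correction took Nr1h4, Rxra and Rorb inside 2-fold, spike-in scaling Rxra and Pgr, and the mean over probes Rxra. With normexp, 9.78% of all genes were past 2-fold higher and 9.46% lower. With the authors' deposited values, all 31 differences moved by less than their spot error. They moved by nearly the same small amount (Ppard from 2.259 to 2.257, Nr1h4 from -2.267 to -2.269). This setting thus repeats the reported scaling and is no separate check. Signals under 50 on an array limit Nr1h4 and Rorb among the genes past 2-fold on both arrays.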
